A study of Mus musculus with 10 samples.

Results

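Inflammasome and pyroptosis genes were followed across 10 RNA-sequencing libraries of mouse bone marrow-derived macrophages (BMDM). The list holds 9 genes chosen by function, with earlier results of these data known. They were found in the deposited table by their symbols. All 9 were present among the 57010 identifiers of the table, and all 9 were among the 12455 genes abundant enough to be tested (a mean of at least 10 normalized read counts over the 10 libraries). By role they are 3 sensors (Nlrp3, Aim2 and Nlrc4), the kinase Nek7, the adaptor Pycard, 2 caspases (Casp1 and Casp4) and 2 proteins that open the plasma membrane (Gsdmd and Ninj1).

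As background, an inflammasome is a protein complex that assembles in the cytosol when a sensor detects a microbial product, misplaced DNA or damage to the cell. The sensor recruits ASC, the product of Pycard, which gathers caspase-1, and caspase-1 cuts the precursors of interleukin-1β and interleukin-18 as well as gasdermin D, whose fragments form pores. This lytic death is called pyroptosis, and Ninj1 acts at its end by rupturing the membrane. In macrophages most of these proteins are made beforehand, whereas Nlrp3 and the interleukin-1β precursor are known to be induced by inflammatory signals in a step called priming.

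The BMDM were either wild type (WT) or lacked WASp (WKO). WASp, encoded by Was, promotes branched actin assembly in blood cells. All groups shared the same culture of 7 days, in which macrophage colony-stimulating factor was present at 20 ng/mL. Confined cells spent 1 h beneath a micropillar ceiling that left them 3 µm of height. There were 2 WT unconfined (replicates 1 and 3), 3 WT confined (replicates 2, 3 and 6), 2 WKO unconfined (replicates 1 and 3) and 3 WKO confined libraries (replicates 1, 2 and 5). The labels give neither the age nor the number of mice, and they do not say whether replicates came from separate animals, so the p-values measure only the spread between these libraries, which may be technical.

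Recovered depth ranged from 13295701 to 19329908 reads per library. Was ranged from 1308 to 1649 normalized read counts in the 5 WT libraries and from 96.9 to 154 in the 5 WKO libraries. All 8 macrophage markers were detected in every library, with summed normalized read counts from 177414 to 304457. Summed markers of B, T and NK, dendritic, and mast and basophil lineages did not exceed 235 in any library. The 10 stromal markers summed to 7756 in WKO confined replicate 5 and to between 160 and 2561 in the other 9 libraries, and that library had the highest value of 9 of the 10. The 10 neutrophil and progenitor markers summed to between 21660 and 29830.0 in 4 WKO libraries, to 6971 in WKO confined replicate 5 and to between 2545 and 10837 in WT libraries.

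Among the members, Ninj1 was the most abundant transcript and Nlrc4 the least in every group, on a scale of normalized reads per kilobase of the longest coding transcript. In WT unconfined cells the mean level per kilobase was 2275 for Ninj1, 723 for Casp1, 545 for Gsdmd and 437 for Nek7. A lower tier held Pycard at 204, Nlrp3 at 190.2, Aim2 at 175 and Casp4 at 139, and Nlrc4 was at 37.6 (n = 2 for each). Neighbours in this order did not overlap between libraries, except Nlrp3 (185 to 195) and Aim2 (156 to 193).

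In WT confined cells Nlrp3 moved from the sixth place to the third, at a mean of 652 normalized reads per kilobase (582 to 727, n = 3). It there overlapped with Casp1 above it (723 to 752) and with Nek7 below it (566 to 593). In WKO unconfined cells the levels of Nlrp3, Pycard, Aim2 and Casp4 all lay between 133 and 217 per kilobase, and neighbours among these 4 overlapped. In WKO confined cells Nlrp3 was in the second place at a mean of 921 per kilobase, but its 3 libraries spanned 417 to 1787 and overlapped with Casp1 (671 to 733). With the merged length of all exons in place of the longest transcript, Casp4 fell to the eighth place in WT confined cells, at 104 per kilobase. For Pycard (3800 bases) and Casp1 (1497 bases) both lengths are the same, so this change could not test their levels.

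**Figure D1:**
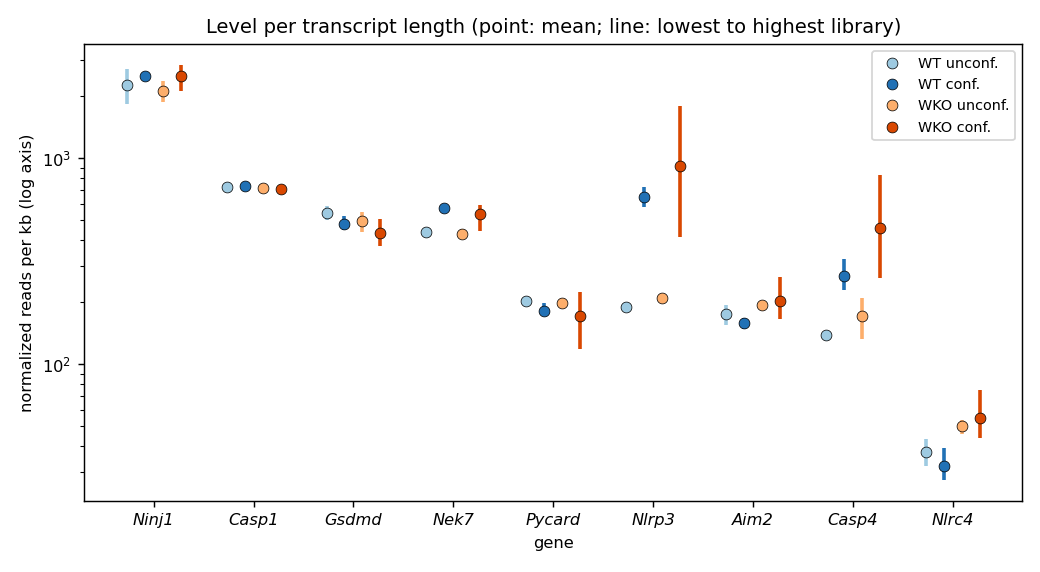
Level of each member per kilobase of its longest coding transcript, in normalized reads on a log axis, by group. Points are group means and lines run from the lowest to the highest library (n = 2 unconfined, n = 3 confined). Ninj1 lies at the top and Nlrc4 at the bottom in every group, and the confined points of Nlrp3 and Casp4 lie above their unconfined points.

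Confinement was followed by higher Nlrp3, Casp4 and Nek7 transcripts when the effect was averaged over both genotypes. On the log2 scale the mean effect was 1.80 ± 0.31 (SE) for Nlrp3, 1.09 ± 0.29 for Casp4 and 0.35 ± 0.09 for Nek7. These 3 of 9 members passed the threshold on the adjusted p-value (limma, Benjamini-Hochberg, 0.05), where 6.21% of all 12455 genes passed. The members were chosen with earlier results of these data known, which limits this comparison. No member passed as lower, although 4 of 9 had a negative estimate. The median absolute effect was 0.21 over the 9 members and 0.18 over all tested genes. In each genotype alone, 0 of 9 members passed, against 1.16% of all genes in WT and 1.72% in WKO, although 3 members had an unadjusted p below 0.05 in each (Nlrp3, Nek7 and Casp4). edgeR also called 0 in each genotype alone, and DESeq2 called 0 in WT and 1, Nlrp3, in WKO. These fits share an estimate of spread over all groups. With only the groups compared in the fit, limma called 3 members in WT, beside 455 of the 12455 genes. In WKO that fit called 0 members, beside 33 of the 12455 genes. Because these are bulk libraries, a change in transcripts per cell and a change in the share of cells that hold them cannot be told apart.

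Nlrp3, on chromosome 11 (GRCm38, 59541568 to 59566956, plus strand), encodes the sensor that responds to potassium loss and many other disturbances of the cell. In WT cells it had 745 and 785 normalized read counts unconfined and 2342, 2602 and 2925 confined. In WKO cells it had 814 and 871 unconfined and 2253, 1676 and 7187 confined (replicates 1, 2 and 5). Every confined library thus exceeded every unconfined library, and WKO confined replicate 5 stood far above the other confined libraries. The mean confinement effect was 3.49-fold (95% interval of the log2 value 1.13 to 2.47, adjusted p = 0.00505). The separate log2 effects were close to each other, 1.77 in WT (adjusted p = 0.0894) and 1.83 in WKO (adjusted p = 0.0611). Both tests used an estimate of spread shared by all groups. In WT the Nlrp3 effect ran from 1.69 to 1.85 over 22 alternatives. It passed the threshold in 5 of them, including the fit of only the groups compared. Without WKO confined replicate 5, the library with the highest stromal sum, the effect in WKO was 1.21 (adjusted p = 0.000899) and the mean effect was 1.49 with an adjusted p = 1.7e-06.

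Aim2, on chromosome 1 (173350879 to 173466040, plus strand), encodes a sensor of double-stranded DNA in the cytosol. It had 549 and 442 normalized read counts in WT unconfined, 423, 479 and 443 in WT confined, 536 and 569 in WKO unconfined and 495, 473 and 755 in WKO confined libraries. Confined and unconfined libraries overlapped in both genotypes. Averaged over both genotypes, the confinement effect was -0.06 on the log2 scale (95% interval -0.36 to 0.25, adjusted p = 0.85), so that a rise as large as that of Nlrp3 lies outside the interval. The mean difference of WKO from WT was 0.24 (-0.06 to 0.55, adjusted p = 0.357).

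Nlrc4, on chromosome 17 (74425438 to 74459142, minus strand), encodes the partner of the NAIP proteins, which bind flagellin and parts of bacterial secretion systems. Its normalized read counts were 151 and 204 in WT unconfined, 129.6, 185 and 138 in WT confined, 218 and 255 in WKO unconfined and 208, 217 and 355 in WKO confined libraries. Every WKO library exceeded every WT library, under confinement and without it. Confined and unconfined libraries overlapped in both genotypes, with a mean confinement effect of -0.07 on the log2 scale (adjusted p = 0.865).

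Nek7, on chromosome 1 (138482875 to 138620141, minus strand), encodes a kinase that binds Nlrp3 and is needed for its assembly. It had 2418 and 2177 normalized read counts in WT unconfined, 2974, 3118 and 3007 in WT confined, 2378 and 2157 in WKO unconfined and 2339.6, 2997 and 3131 in WKO confined libraries. The WT groups were separate, whereas WKO confined replicate 1 lay within the range of the WKO unconfined libraries. The mean confinement effect was 1.28-fold (log2 interval 0.15 to 0.56, adjusted p = 0.0453), with 0.40 in WT and 0.31 in WKO.

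The call for Nek7 sat close to the threshold and was lost with no filter on low values (adjusted p = 0.0803), with upper-quartile scaling (0.0869) and with no mean-variance trend (0.117). Without any 1 of the 4 unconfined libraries, the 3 WT confined libraries or WKO confined replicate 2 (8 libraries), its adjusted p rose to between 0.0879 and 0.191. Without WKO confined replicate 1 the mean log2 effect of Nek7 was 0.42 with an adjusted p = 0.00257, and without replicate 5 it was 0.31 with an adjusted p = 0.0475.

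Pycard, on chromosome 7 (127989708 to 127993867, minus strand), encodes the adaptor ASC. It had 792 and 758 normalized read counts in WT unconfined, 650.3, 753 and 675 in WT confined, 772 and 732 in WKO unconfined and 856, 641 and 449 in WKO confined libraries. The WT confined values all lay below the WT unconfined ones, while the WKO confined values lay on both sides. For Pycard the mean confinement effect was -0.21 on the log2 scale (95% interval -0.54 to 0.11, adjusted p = 0.441). An antisense gene, Gm45205, covers 12.8% of the Pycard exon bases, and the use of strand in counting is not given in the sources used here.

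The neighbouring caspase genes of chromosome 9 differed from each other under confinement. Casp1 (5298517 to 5307265) and Casp4 (5308828 to 5336783) lie side by side on the plus strand. Casp1 encodes the protease of the canonical inflammasome, and Casp4 encodes the protease known in mice as caspase-11, which binds bacterial lipopolysaccharide in the cytosol and cuts gasdermin D directly.

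Casp1 was the steadiest member. It had 1073 and 1091 normalized read counts in WT unconfined, 1082, 1086 and 1126 in WT confined, 1013 and 1127 in WKO unconfined and 1092, 1097 and 1004 in WKO confined libraries. All groups overlapped. The mean confinement effect was 0.01 on the log2 scale, with a 95% interval from -0.16 to 0.18, and the mean difference of WKO from WT was -0.03 (-0.20 to 0.14).

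Casp4 had 197 and 202 normalized read counts in WT unconfined and 329, 361 and 466 in WT confined libraries. In WKO it had 190.4 and 302 unconfined and 377, 408 and 1195 confined (replicates 1, 2 and 5). Confined libraries exceeded unconfined libraries in both genotypes, and WKO confined replicate 5 was again the highest. The mean confinement effect was 2.13-fold (log2 interval 0.46 to 1.71, adjusted p = 0.0456). The effect was 0.93 in WT (adjusted p = 0.383) and 1.24 in WKO (adjusted p = 0.182) on the log2 scale.

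Leaving out any 1 of the 4 unconfined or the 3 WT confined libraries (7 libraries) raised the adjusted p of the mean Casp4 effect to between 0.0778 and 0.191. The call was also lost with no filter on low values (adjusted p = 0.0855), with upper-quartile scaling (0.0506) and with no mean-variance trend (0.130). Without WKO confined replicate 5 the mean log2 effect of Casp4 was 0.82 with an adjusted p = 0.00638, and the effect in WKO was 0.71.

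Across both genotypes, Nlrp3 and Casp4 were the 2 of 9 members whose confined libraries lay wholly above the unconfined ones in WT and in WKO. Of all tested genes 13.0% were separated in this way, in either direction.

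The membrane executioners did not pass the test. Gsdmd, on chromosome 15 (75862327 to 75867408, plus strand), encodes the pore-forming gasdermin D, and its normalized read counts were 896 and 1058 in WT unconfined, 824, 807 and 937 in WT confined, 786 and 985 in WKO unconfined and 909, 669.6 and 761 in WKO confined libraries. Its groups overlapped in both genotypes, with a mean confinement effect of -0.19 on the log2 scale (95% interval -0.44 to 0.06, adjusted p = 0.371). Ninj1, on chromosome 13 (49187485 to 49196244, plus strand), had 2439.5 and 3572 normalized read counts in WT unconfined, 3147, 3424 and 3440.0 in WT confined, 2489 and 3145 in WKO unconfined and 3402, 2804 and 3766 in WKO confined libraries. The 2 unconfined libraries of a genotype differed more than the group means did, and the mean confinement effect was 0.21 (95% interval -0.06 to 0.48, adjusted p = 0.36).

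**Figure D2:**
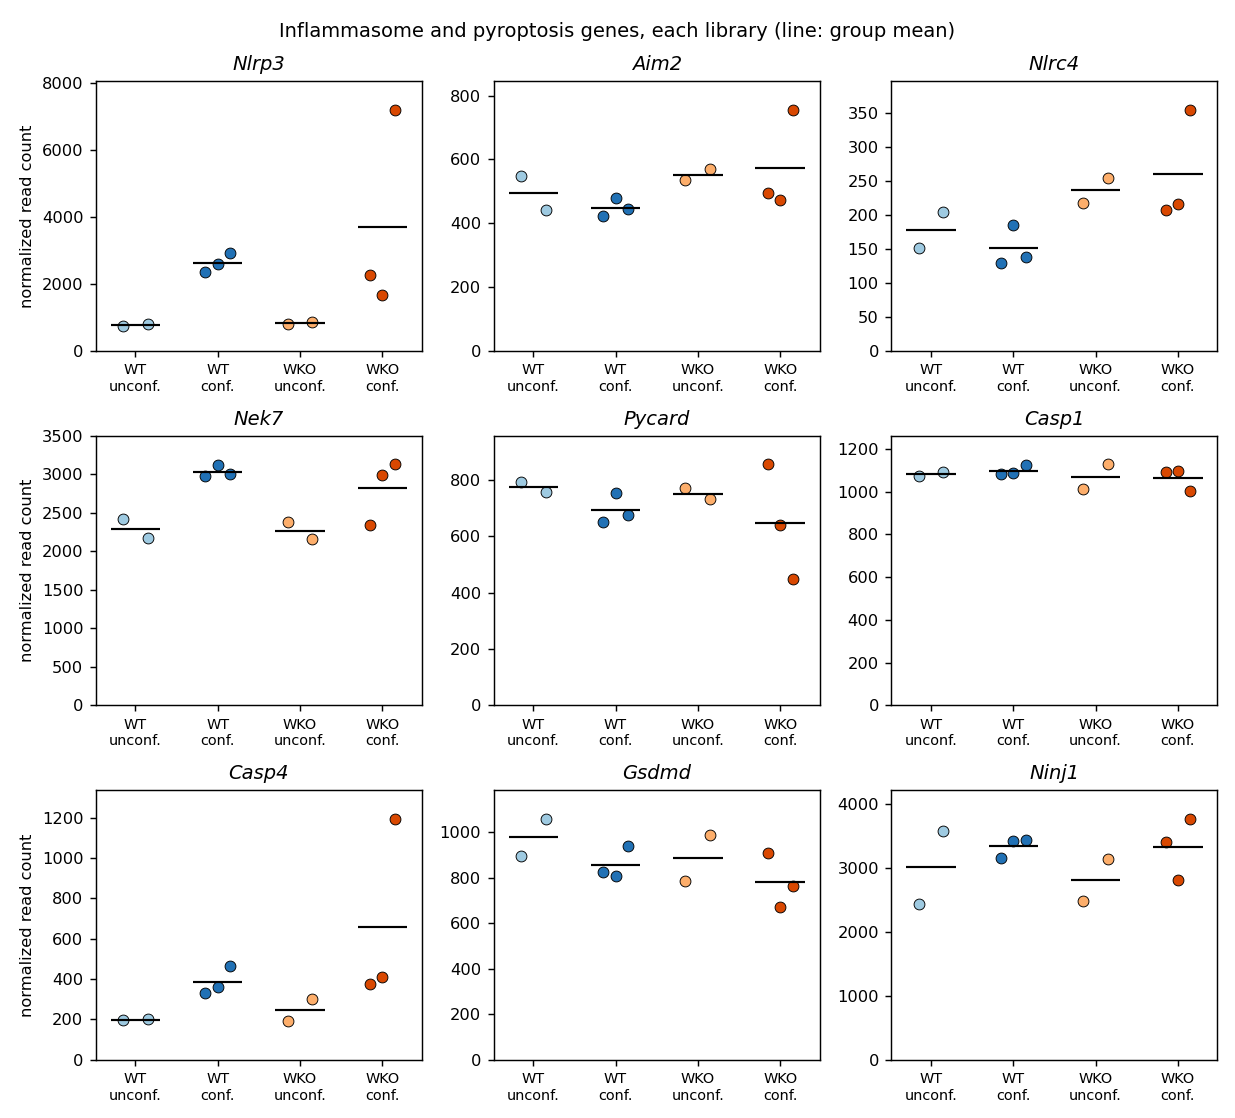
Normalized read counts of the 9 members in each library, with 1 panel per gene, the y axis starting at 0 and a line at each group mean. Confined points of Nlrp3 and Casp4 lie above the unconfined points in both genotypes, with WKO confined replicate 5 highest at 7187 and 1195, while the points of Casp1 stay between 1004 and 1127.

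Stretches upstream of Nlrp3, Casp4 and Casp1 are shown because the first 2 genes had the largest confinement effects and Casp1 is the neighbour of Casp4 with an effect near 0. They come from RefSeq (GRCm38.p6), run 5′ to 3′ on the coding strand and stop before the first annotated exon base. Capitals mark matches to the NF-kB consensus, the site bound by the main transcription factor of priming.

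Nlrp3, chr11:59541319-59541567: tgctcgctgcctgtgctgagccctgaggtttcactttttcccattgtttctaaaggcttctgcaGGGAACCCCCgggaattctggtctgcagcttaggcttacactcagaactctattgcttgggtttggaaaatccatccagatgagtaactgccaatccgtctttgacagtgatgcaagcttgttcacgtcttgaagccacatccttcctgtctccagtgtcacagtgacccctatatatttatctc
Casp4, chr9:5308599-5308827: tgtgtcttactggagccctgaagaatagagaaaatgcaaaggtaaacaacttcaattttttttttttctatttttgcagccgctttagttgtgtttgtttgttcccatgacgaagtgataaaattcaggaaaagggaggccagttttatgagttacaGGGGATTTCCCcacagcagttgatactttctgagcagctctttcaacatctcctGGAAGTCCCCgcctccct
Casp1, chr9:5298267-5298516: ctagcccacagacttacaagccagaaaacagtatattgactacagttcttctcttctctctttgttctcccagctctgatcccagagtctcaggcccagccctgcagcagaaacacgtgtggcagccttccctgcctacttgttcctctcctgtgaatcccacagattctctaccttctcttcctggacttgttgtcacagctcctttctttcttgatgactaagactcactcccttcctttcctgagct

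The Casp4 stretch held 2 separate capital runs. The first, which holds 2 overlapping matches, begins 93 bases before the RefSeq start at 5308849, and the other begins 39 bases before it. From another RefSeq start of Casp4, at 5308860, the same runs begin 104 and 50 bases before. The Nlrp3 stretch held 1 run, 186 bases before the start, and the stretch before a second RefSeq start of Nlrp3 held none. Casp1 had no match in its 250 bases, nor had the windows of Nek7, Aim2, Pycard, Ninj1 and Nlrc4. Of the pathway genes described below that rose with confinement, Il1b, Il1rn and Lrrc8a had no match. Tnfaip3 and Irf1 each had a match before a RefSeq start but not before another. RefSeq held promoters for 8 of the 9 members.

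Of 32851 mouse promoter windows of 250 bases, 7.25% held a match to this consensus on either strand. No member window held the AP-1 site (TGACTCA or TGAGTCA), found in 4.46% of windows, or the core of the interferon-stimulated response element, found in 2.98%. A match describes letters in a window and is no evidence of binding, and a missing match concerns these windows only.

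Loss of WASp left no member past the threshold. In unconfined cells 0 of 9 members passed, against 0.145% of all tested genes, and 0 had an unadjusted p below 0.05. In confined cells 0 of 9 passed, against 2.59%, and 1 (Nlrc4) had an unadjusted p below 0.05. For the genotype effect averaged over both conditions 0 of 9 passed, against 5.57%, again with Nlrc4 below 0.05 before adjustment. edgeR called 0 members in these 3 comparisons, while DESeq2 called Nlrc4 in confined cells (adjusted p = 0.0447) and in the average (adjusted p = 0.042). The median absolute effect of the members was 0.14 in the average, where that of all tested genes was 0.17.

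The values for Nlrc4 were higher in WKO by 0.59 ± 0.19 (SE) on the log2 scale over both conditions, with a 95% interval from 0.18 to 0.99 and an adjusted p = 0.0943 in limma. The difference was 0.42 in unconfined and 0.75 in confined cells. Nlrc4 was the 1 member of 9 whose WKO libraries lay wholly on one side of the WT libraries in both conditions, as 12.0% of all tested genes did. Summed neutrophil and progenitor markers were also higher in every WKO library except confined replicate 5 than in all WT libraries. That replicate, at a sum of 6971, had the highest Nlrc4 value and also the highest stromal sum (7756). The part of either marker set in the Nlrc4 values was not tested.

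For the other members the interval of the mean genotype difference bounds its size. It ran from -0.50 to 0.84 on the log2 scale for Nlrp3 and from -0.20 to 1.05 for Casp4. Narrower intervals were found for Nek7 (-0.27 to 0.14), Gsdmd (-0.39 to 0.10), Pycard (-0.42 to 0.23) and Ninj1 (-0.32 to 0.22). A mean difference of 2-fold or more thus lies outside the interval for Nlrp3, Nek7, Gsdmd, Pycard and Ninj1. The same holds for Aim2 and Casp1, but not for Casp4. These bounds concern the average over both conditions, not either condition alone.

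**Figure D3:**
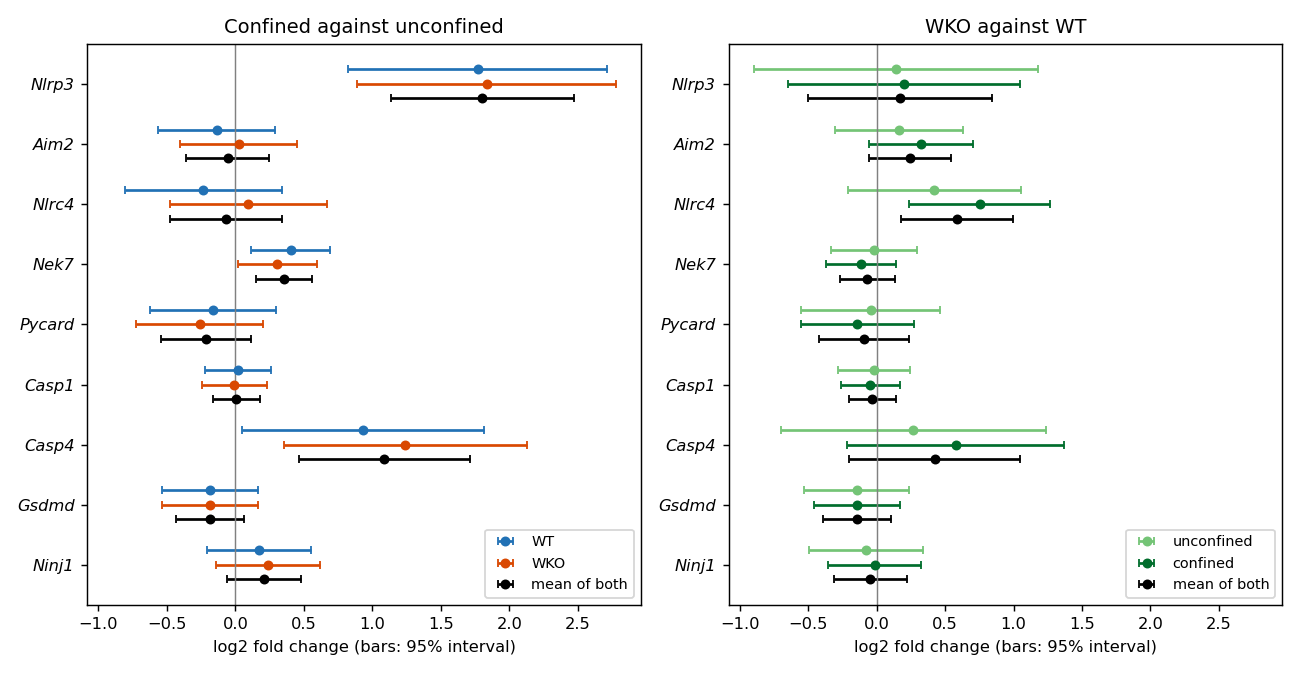
Log2 fold changes of the 9 members with 95% intervals, for confined against unconfined cells (left) and WKO against WT (right). Black points are averages over both genotypes or both conditions. On the left the black intervals of Nlrp3, Nek7 and Casp4 lie above 0, and on the right only that of Nlrc4 does, at an adjusted p = 0.0943.

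Whether confinement acted differently in the 2 genotypes was tested as an interaction, the effect in WKO minus that in WT. In limma 0 of 9 members passed, and 0 had an unadjusted p below 0.05. No gene of the 12455 passed either (0%), although 258 had an unadjusted p below 0.05, and edgeR and DESeq2 also called 0. The estimate was 0.06 on the log2 scale for Nlrp3, with a 95% interval from -1.28 to 1.40, and 0.31 for Casp4 (-0.94 to 1.56). These intervals include differences of 2-fold in either direction for Nlrp3. Without WKO confined replicate 5 the Nlrp3 estimate changed sign to -0.57 and that of Casp4 to -0.23.

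A further 55 genes of the pathway were listed by role, and 48 of them were tested. Averaged over both genotypes, 5 of the 48 rose and 1 fell with confinement, where 6.21% of all tested genes were called. Averaged over both conditions, 2 were higher and 2 lower in WKO, a share close to the 5.57% of all tested genes. The median absolute confinement effect was 0.24 over these 48 genes, beside 0.18 over all tested genes.

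Among the substrates and other death effectors, 1 of 11 tested genes rose with confinement in each genotype, where 1.16% of all genes were called in WT and 1.72% in WKO. This was Il1b, which encodes the interleukin-1β precursor, and it had 13.3 and 21.1 normalized read counts in WT unconfined, 637, 870.4 and 705 in WT confined, 18.7 and 32.0 in WKO unconfined and 968, 415 and 5615 in WKO confined libraries. All confined libraries exceeded all unconfined libraries. The fold change was 41.2 in WT (adjusted p = 0.00584) and 51.4 in WKO (adjusted p = 0.00343). Without WKO confined replicate 5 the log2 effect of Il1b in WKO went from 5.68 to 4.64. The call in WT was lost without either WT unconfined library (adjusted p of up to 0.0926) and the call in WKO without WKO unconfined replicate 1 (0.0638), whereas the mean effect of Il1b was called in all 10 such fits (at most 0.00196).

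Il18, the other cytokine cut by caspase-1, followed another pattern. It had 147 and 108 normalized read counts in WT unconfined, 93.2, 108 and 95.6 in WT confined, 206 and 219 in WKO unconfined and 209, 131 and 182 in WKO confined libraries. WKO libraries lay above WT libraries in both conditions, and the mean genotype effect was 1.70-fold (adjusted p = 0.0232). Leaving out 1 library at a time gave an adjusted p above 0.05 in 5 of 10 fits, and the Il18 effect was called in 15 of all 21 alternatives. The summed neutrophil and progenitor markers and the summed stromal markers, higher in WKO unconfined than in WT libraries, were not tested as a part of this difference.

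Of 9 tested restraints, 2 rose with confinement on average (6.21% of all genes were called) and 1 was lower in WKO (5.57%). Tnfaip3, which encodes the ubiquitin-editing enzyme A20, ranged from 1263 to 1381 normalized read counts in the 4 unconfined libraries and from 4325 to 18898 in the 6 confined ones. Its change was 5.39-fold in WT (adjusted p = 0.0212) and 6.52-fold in WKO (adjusted p = 0.00908). The Tnfaip3 call in WT was lost without any 1 of the 5 WT libraries (adjusted p of up to 0.171) and the call in WKO without either WKO unconfined library (up to 0.115), while the mean effect was called in all 10 fits (at most 0.00594).

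Il1rn encodes the antagonist of the interleukin-1 receptor. It had 4455 and 3515 normalized read counts in WT unconfined, 5586, 5782 and 6812 in WT confined, 863 and 673 in WKO unconfined and 1453, 1443 and 4158 in WKO confined libraries. WKO libraries lay below WT libraries in each condition. Log2 differences of WKO from WT were -2.37 in unconfined cells (adjusted p = 0.0477) and -1.55 in confined cells (adjusted p = 0.0282). Both calls depended on single libraries: leaving out 1 at a time ended the call in 8 of 10 fits for unconfined cells (adjusted p of up to 0.548, without WKO unconfined replicate 3) and in 6 of 10 for confined cells (up to 0.101, without WT confined replicate 6). edgeR called neither (adjusted p = 0.0785 and 0.0586). The mean genotype effect of Il1rn, -1.96 on the log2 scale (adjusted p = 0.0015), was called in all 10 such fits (at most 0.0168). Its mean confinement effect was 1.02 (adjusted p = 0.0375), with an adjusted p above 0.05 in 7 of 10 fits that left out 1 library. That effect was called in 12 of all 21 alternatives.

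Of the 6 transcription factors listed, Irf1 rose and Irf8 fell on average. Irf1, an interferon-induced activator, ranged from 491 to 1172 normalized read counts unconfined and from 3198 to 8777 confined, a change of 8.55-fold in WT (adjusted p = 0.00173) and 5.38-fold in WKO (adjusted p = 0.00416). Without WKO unconfined replicate 1 the WKO call for Irf1 was lost (adjusted p = 0.0888). Irf8, a factor of the macrophage lineage, ranged from 2759.6 to 3537 unconfined and from 2132 to 2828 confined, and its mean log2 effect was -0.43 (adjusted p = 0.0145). Without any 1 of 3 libraries, the adjusted p for Irf8 rose above 0.05. Over all 21 alternatives the Irf8 effect was called in 16, with an adjusted p of up to 0.293.

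Among 14 genes of upstream signals and licensing, 1 rose with confinement, a share near the 6.21% of all genes, and 1 was higher and 1 lower in WKO, where 5.57% of all genes were called. P2rx7, the ATP-gated channel through which potassium leaves the cell, had a mean log2 genotype difference of 0.40 (adjusted p = 0.0497), with values from 1466 to 1832 in WKO and from 1099.8 to 1454 in WT libraries. Pstpip1, which encodes a partner of the sensor pyrin, was lower by 0.48 in WKO (log2 difference -0.48, adjusted p = 0.011), with values from 1059.6 to 1299.7 against 1463 to 1769. Leaving out 1 library moved the adjusted p above 0.05 in 7 of 10 fits for P2rx7 and in 2 of 10 for Pstpip1. Over all 21 alternatives P2rx7 was called in 9 and Pstpip1 in 19.

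Lrrc8a, a subunit of the volume-regulated anion channel, rose by 1.03 on the log2 scale (adjusted p = 0.0336). This call was lost in 8 of 10 fits that left out 1 library. It was also lost with no filter on low values (adjusted p = 0.0674) and with no mean-variance trend (0.0758). Over all 21 alternatives the Lrrc8a effect was called in 10, with an adjusted p of up to 0.462. Its reads are uncertain, because 66.2% of its exon bases also belong to Gm28035 or another annotated gene on the same strand. Of 8 other sensors 0 passed in any of the 7 limma contrasts. The smallest p belonged to Naip5, whose product binds flagellin and is a partner of Nlrc4, at 0.39 higher in WKO (adjusted p = 0.0932). Of the Naip5 transcript 84.5% is shared with Naip6.

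**Figure D4:**
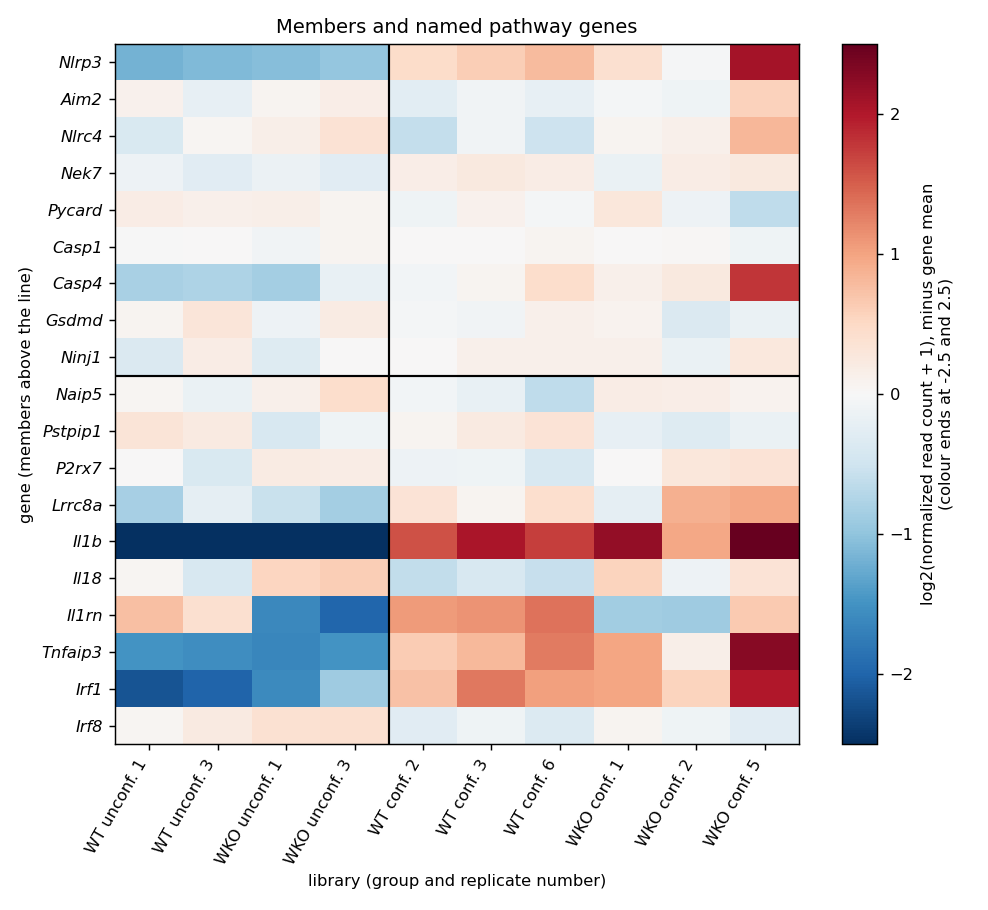
Log2(normalized read count + 1) of the 9 members (above the line) and 10 other pathway genes in each library, minus the mean of the gene. Unconfined libraries stand left of the vertical line, and colours end at 2.5 in both directions. Nlrp3, Casp4, Il1b, Tnfaip3 and Irf1 are lower in the unconfined libraries and highest in WKO confined replicate 5, Il1rn is low in the WKO unconfined libraries, and Casp1 stays near white.

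Genes with a pattern like that of Nlrp3, Nek7 and Casp4 were sought by Pearson correlation over the 10 libraries among 10216 genes with a mean of at least 50. The libraries fall into confined and unconfined, so these values mainly order genes by the same contrast and are given as a description. Nlrp3 was followed most closely by Marcksl1 (r = 0.989), Icam1 (r = 0.989) and Zswim4 (r = 0.987). For Nek7 the closest were Canx (0.981), Prkacb (0.979) and Zc3hav1 (0.978), and for Casp4 they were Map4k4 (0.984), Cd86 (0.983) and Peli1 (0.979). Without WKO confined replicate 5 the coefficients were between 0.977 and 0.984 for the 3 genes listed with Nlrp3 and between 0.938 and 0.952 for those listed with Casp4.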

How the data were processed

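Per the labels' protocols, the input for each messenger RNA library was 5 ng of total RNA. FastQC, Trim Galore, STAR and the build GRCm38 (mm10) are named in the submitters' processing notes; the counting tool, annotation and strand setting are not given in the sources used here. The deposited values form 1 table, in which each gene has a signal per library, namely its read count divided by a size factor. In each library 100% of values were whole multiples of 1 read (tolerance 1e-06), and the factors equalled DESeq2 1.42.0 size factors to within 2.89e-15. Such scaling leaves composition and length effects in place. The detection floor of 3 reads corresponds to 2.35 to 3.59 normalized read counts and covers counting error only.

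Tests used limma 3.58.1 (R 4.3.3) on log2 of the normalized read count after adding 1, with 1 mean per group over all 10 libraries (6 residual degrees of freedom), a mean-variance trend and Benjamini-Hochberg adjustment over the 12455 genes with a mean of at least 10, at a threshold of 0.05. The script was tested on simulated data. There were 7 contrasts: WKO against WT in each condition, confined against unconfined in each genotype, their interaction, and the 2 averaged effects. Fold changes on this scale understate the change of low genes.

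The members, the pathway and marker lists and the tests were chosen with earlier results of these data known. Named pathway genes were, per list, up to 4 with the smallest p among those past the threshold in a contrast, or the 1 with the smallest p where none passed. Coordinates and lengths came from GENCODE M21 (GRCm38), promoters from RefSeq, and shared sequence was searched with blastn 2.17.0 (at least 95% identity over 100 bases). Of the 55 pathway symbols all were matched, 2 of them through RefSeq synonyms. Replicates differed beyond sampling noise (chi-square per degree of freedom 7.56 to 78.3), so each library was counted. Alternatives were other filters, pseudocounts (0.25 and 4), scalings and weights, edgeR 4.0.16, DESeq2, fits on the compared groups only, a replicate block and each library left out in turn.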

Additional observations from a re-analysis of the deposited data

How the results depend on the processing

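The mean confinement effect of Nlrp3 passed the threshold in all 21 alternatives, with log2 values from 1.47 to 2.01, whereas Casp4 passed in 11 and Nek7 in 9. The count of members called in that contrast, 3, became 1 with no filter on low values, upper-quartile scaling or no mean-variance trend, and it ranged from 1 to 3 when 1 library was left out. Casp4 and Nek7 were the calls lost there. In confinement within WT the count of 0 became 2 with array weights, 3 in a fit of only the groups compared and 0 to 2 without 1 library. Within WKO it became 1 with DESeq2, 3 with array weights and 0 to 3 without 1 library. DESeq2 called 1 member in WKO against WT confined and 1 in the mean genotype effect. The causes were not tested.

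Groups share replicate numbers in the labels. Same-numbered libraries did not deviate together (r of their deviations from -0.11 to 0.0764), so the numbers were not taken as pairs. With a replicate block in the fit, limma called 2 members in the mean confinement effect (Nlrp3 and Casp4; for Nek7 the adjusted p = 0.456) and 1 within each genotype (Nlrp3).

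Over all genes the calls in the mean confinement effect ranged from 288 (without WKO unconfined replicate 1) to 2220 (array weights) around 773, and those in the mean genotype effect from 169 (without WKO unconfined replicate 3) to 1804 (array weights) around 694. Calls ranged from 4 to 245 around 18 for WKO against WT unconfined, from 53 to 1948 around 322 for confined, from 20 to 455 around 144 for confinement in WT and from 33 to 1735 around 214 for it in WKO. Upper-quartile scaling moved the median log2 effect of all genes from -0.01 to -0.12 in WKO confinement. It turned 111 higher and 33 lower calls into 103 and 59 for confinement in WT and 185 and 29 into 159 and 52 in WKO. In the mean confinement effect it turned 515 and 258 into 392 and 446, and Nlrp3 was then at 1.72, Casp4 at 1.00 (adjusted p = 0.0506) and Nek7 at 0.27.

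Sign changes concerned uncalled effects, most of them near 0. Log2 values of opposite sign under upper-quartile scaling were 0.0044 for Nek7 and 0.0056 for Casp1 (WKO against WT unconfined), -0.051 for Casp1 in WT and -0.080 for Aim2 and -0.0075 for Nlrc4 in WKO (confinement), -0.081 for Casp1 (mean confinement effect) and -0.028 for Gsdmd (interaction). For the Gsdmd interaction TMM gave -0.012 and edgeR -0.0061. Array weights gave -0.45 for Nlrp3 in WKO against WT confined and -0.15 in the mean genotype effect. They gave -0.17 for Aim2, -0.072 for Nlrc4 and 0.028 for Casp1 for confinement in WKO. In the interaction they gave -0.59 for Nlrp3, -0.047 for Aim2, 0.011 for Casp1, -0.035 for Casp4, -0.14 for Gsdmd and -0.13 for Ninj1. The replicate block gave -0.34 for Nlrp3, 0.033 for Pycard, 0.051 for Casp1, 0.0022 for Gsdmd and 0.073 for Ninj1 in WKO against WT confined. For confinement it gave 0.034 for Pycard and -0.016 for Casp1 in WT, -0.15 for Aim2, 0.11 for Pycard and 0.053 for Casp1 in WKO, and 0.073 for Pycard in the mean. In the interaction it gave -0.48 for Nlrp3, -0.093 for Aim2, 0.077 for Pycard and 0.068 for Casp1, and in the mean genotype effect -0.099 for Nlrp3 and 0.017 for Casp1.

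Leaving out 1 library gave ranges that span 0. For WKO against WT unconfined these were -0.094 to 0.057 for Nek7, -0.094 to 0.059 for Casp1, -0.064 to 0.60 for Casp4, -0.31 to 0.017 for Gsdmd and -0.35 to 0.20 for Ninj1. For WKO against WT confined they were -0.43 to 0.62 for Nlrp3, -0.20 to 0.015 for Nek7, -0.36 to 0.099 for Pycard and -0.11 to 0.10 for Ninj1. For confinement they were -0.29 to 0.018 for Aim2 and -0.099 to 0.45 for Ninj1 in WT, and -0.19 to 0.15 for Aim2, -0.15 to 0.23 for Nlrc4 and -0.084 to 0.070 for Casp1 in WKO. For the interaction they were -0.57 to 0.48 for Nlrp3, -0.052 to 0.32 for Aim2, -0.18 to 0.033 for Nek7, -0.32 to 0.14 for Pycard, -0.11 to 0.049 for Casp1, -0.23 to 0.64 for Casp4, -0.16 to 0.17 for Gsdmd and -0.21 to 0.34 for Ninj1. For the mean genotype effect they were -0.14 to 0.38 for Nlrp3, -0.20 to 0.028 for Pycard, -0.070 to 0.0069 for Casp1 and -0.18 to 0.091 for Ninj1. For the mean confinement effect they were -0.16 to 0.021 for Aim2, -0.19 to 0.039 for Nlrc4 and -0.031 to 0.045 for Casp1. In the unconfined groups, leaving out 1 library leaves a single one, which is then assumed to vary like the other groups.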

Other observations

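Several genes of the pathway were at or near the detection floor in these macrophages. Nlrp6, Nlrp9b and Gsdma had 0 reads in all 10 libraries, which allows up to 3 reads in each. Mean normalized read counts over the 10 libraries were 0.859 for Ninj2, the relative of Ninj1, 2.51 for Gsdmc, 8.52 for Nlrp12 and 9.65 for Ifi208 (listed as Pydc3), and these 4 genes were below the level required for testing. Gsdme, another gasdermin, had a mean of 224.

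Several pathway genes, picked here after their values were seen, missed the threshold with adjusted p-values between 0.05 and 0.1 in limma. Txnip, whose product binds Nlrp3, had a mean log2 confinement effect of -0.52 (adjusted p = 0.0779). Gbp5, a guanylate-binding protein that promotes Nlrp3 assembly, differed by 1.31 between WKO and WT (adjusted p = 0.0695). For Casp12, the gene after Casp4 on chromosome 9, the difference was 2.42 at a mean of only 11.6 normalized read counts (adjusted p = 0.0899).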
